A study of Mus musculus with 12 samples.

Results

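RNA levels of 10 genes of the oxysterol-binding protein family, *Osbp*, *Osbp2*, *Osbpl1a*, *Osbpl2*, *Osbpl3*, *Osbpl5*, *Osbpl6*, *Osbpl8*, *Osbpl9* and *Osbpl11*, were read from a table of 21859 mouse genes in 5 control and 7 cryptorchid libraries. The group was chosen by the lower level of *Osbp2* in cryptorchid libraries in this same comparison, and the other 9 genes were added as its relatives with their values known. The differences of the family genes between the groups are therefore given as descriptions, without a test. *Osbp2* had a 6.17-fold lower level in the cryptorchid group, while the ratios of the other 9 genes ran from 0.936 to 1.47. All 10 genes passed the filter on low values.

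Oxysterol-binding proteins and their relatives (ORPs) carry a lipid-binding domain that takes up a sterol or phosphatidylserine and, in exchange, phosphatidylinositol 4-phosphate (PI4P). Most act where the endoplasmic reticulum (ER) touches another membrane, tethered there by a PH domain on one side and by binding to the VAP proteins of the ER, or by a membrane anchor of their own, on the other. OSBP moves sterol from the ER to the Golgi along a PI4P gradient. *Osbp2* encodes ORP4, the nearest relative of OSBP, which binds the intermediate filament protein vimentin, and male mice without ORP4 are infertile with malformed late spermatids.

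The cells were GFRa1+/KIT- spermatogonia, a sort fraction enriched for spermatogonial stem cells, from mice of 8 to 10 weeks. The samples are labelled WT, and per the methods the sorted cells came from mice carrying a GFRa1-EGFP reporter. In the cryptorchid group the left testis had been fixed to the abdominal wall 10 days earlier, which exposes it to body temperature, and the right testis, left in the scrotum, was the control. Seminiferous tubules were digested at 32°C for control and 37°C for cryptorchid testes, so an effect of that step and of the surgery cannot be told apart. Each library was made by Smart-seq2 from the RNA of about 200 cells, and fewer cells of a type and less RNA per cell cannot be told apart in such bulk samples. The libraries held 4511730 to 24345368 reads on genes in control and 3306771 to 20027902 in cryptorchid. No label gives technical sets. Replicates 1 to 3 and replicates 4 and above, split by number, were taken as such sets, with 74.5 to 94.0% and 94.8 to 99.9% of reads on genes. *Gfra1*, the receptor used for the sort, had 6.80 to 9.59 log2 RPM (reads scaled to the mapped reads of the library) over the libraries, while *Kit* RNA was still read at 3.67 to 5.74. The meiotic gene *Sycp3* reached 7.57. *Cyp11a1* of Leydig cells had no reads in 6 of the 12 libraries, and *Star* of the same list had reads in all 12. *Adgre1* of macrophages had none in 4, while 4 others of its list of 10 (*Cx3cr1*, *Csf1r*, *Cd68* and *Mrc1*) had reads in all 12, *Cx3cr1* at a control mean of 8.24 log2 RPM. The next highest control mean of that list was 2.59, for *Csf1r*, so *Cx3cr1* stood apart from the rest. *C1qa* had no reads in 4 control and 5 cryptorchid libraries, and *C1qc* in 4 and 6. *C1qb* and *Fcgr1* each had none in 2 and 4, and *Lyz2* in 3 and 2. RNA of spermatids, which the sort should leave out, was present in every library and is given beside *Osbp2*.

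*Osbp2* lies on chromosome 11 of GRCm38 (chr11:3703731-3863903, minus strand) and has 3 annotated start sites in RefSeq, and *Osbp* (chr19:11965941-11994112, plus strand) has 1. The 250 bases before each start (RefSeq, GRCm38.p6) are shown to set the gene that differed beside the close relative that did not pass the same limits. Capitals mark the GC box, spelled GGGCGG. They also mark the CCAAT box, the E-box spelled CACGTG, and the core of the heat shock element spelled GAANNTTC. All were searched for on both strands, and matches may overlap.
Osbp2 start 1, chr11:3863904-3864153, minus strand: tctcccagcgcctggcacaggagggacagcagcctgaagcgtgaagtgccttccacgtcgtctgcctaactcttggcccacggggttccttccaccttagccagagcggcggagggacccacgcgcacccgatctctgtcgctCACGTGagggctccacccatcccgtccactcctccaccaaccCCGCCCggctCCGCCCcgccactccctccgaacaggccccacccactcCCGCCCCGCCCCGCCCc
Osbp2 start 2, chr11:3774669-3774918, minus strand: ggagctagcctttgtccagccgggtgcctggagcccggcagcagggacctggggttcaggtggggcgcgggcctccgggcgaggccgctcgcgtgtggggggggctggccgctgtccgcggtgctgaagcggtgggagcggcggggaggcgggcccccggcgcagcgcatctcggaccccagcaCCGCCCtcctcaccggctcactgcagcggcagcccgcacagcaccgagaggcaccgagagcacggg
Osbp2 start 3, chr11:3722228-3722477, minus strand: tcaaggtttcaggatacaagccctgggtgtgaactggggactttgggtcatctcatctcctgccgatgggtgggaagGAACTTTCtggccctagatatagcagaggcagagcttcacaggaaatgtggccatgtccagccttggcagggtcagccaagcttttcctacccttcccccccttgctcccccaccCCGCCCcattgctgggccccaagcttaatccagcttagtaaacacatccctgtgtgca
Osbp start, chr19:11965594-11965843, plus strand: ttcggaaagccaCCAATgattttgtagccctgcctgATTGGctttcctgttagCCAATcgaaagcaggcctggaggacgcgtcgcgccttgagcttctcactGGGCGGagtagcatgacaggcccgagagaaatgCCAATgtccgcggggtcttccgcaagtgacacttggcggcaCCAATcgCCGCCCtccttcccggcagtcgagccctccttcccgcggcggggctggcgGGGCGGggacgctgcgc
The window of *Osbp2* start 1 held 5 GC boxes, some of them overlapping, and 1 E-box, and those of start 2 and start 3 held 1 GC box each. Start 3 also held 1 heat shock element core. The *Osbp* window held 3 GC boxes and 5 CCAAT boxes, whereas none of the 3 *Osbp2* windows held a CCAAT box. Of 32851 mouse windows of this length, 32.7% held a GC box, 33.8% a CCAAT box, 6.02% this E-box and 6.69% this heat shock element core. The TATA box TATAAA (in 12.4% of all windows) and the cyclic AMP response element TGACGTCA (in 1.55%) were in none of the 15 windows of the 9 family genes that had an entry. GC content was 70.4, 76.8 and 56.0% in the *Osbp2* windows and 64.0% in that of *Osbp*, against a median of 52.4% over all windows. A match in these letters is not a binding site, and counts per gene do not tell which of the 3 starts of *Osbp2* was used in these cells.

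*Osbp2* stood at 7.38, 5.96, 6.49, 7.59 and 7.54 log2 RPM in control replicates 1 to 5, from 838 to 4070 reads. In cryptorchid replicates 1 to 7 it stood at 4.16, 3.68, 4.51, 4.87, 3.59, 5.02 and 4.74, from 41 to 398 reads. Every cryptorchid library was thus below every control library, with the highest cryptorchid value, in replicate 6, still under the lowest control value, in replicate 2. The control mean was 6.99 ± 0.730 log2 RPM (SD, n = 5), the cryptorchid mean was 4.37 ± 0.573 (SD, n = 7), and the log2 difference of cryptorchid minus control was -2.62 with a standard error of 0.355 and a 95% interval of -3.37 to -1.88. As a ratio this is 6.17-fold lower, with an interval of 3.67 to 10.4. The difference was -2.49 in replicates 1 to 3 alone and -3.01 in replicates 4 and above alone. Groups did not overlap, with cryptorchid lower, for 0.283% of the 16932 genes tested. Of the 10 family genes, 1 was lower by 2-fold or more at an unadjusted *P* under 0.05 and 0 were higher by the same limits, beside 2.36% and 3.56% of all genes. Since *Osbp2* was selected on this contrast, nothing is read from that count.

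**Figure D1:**
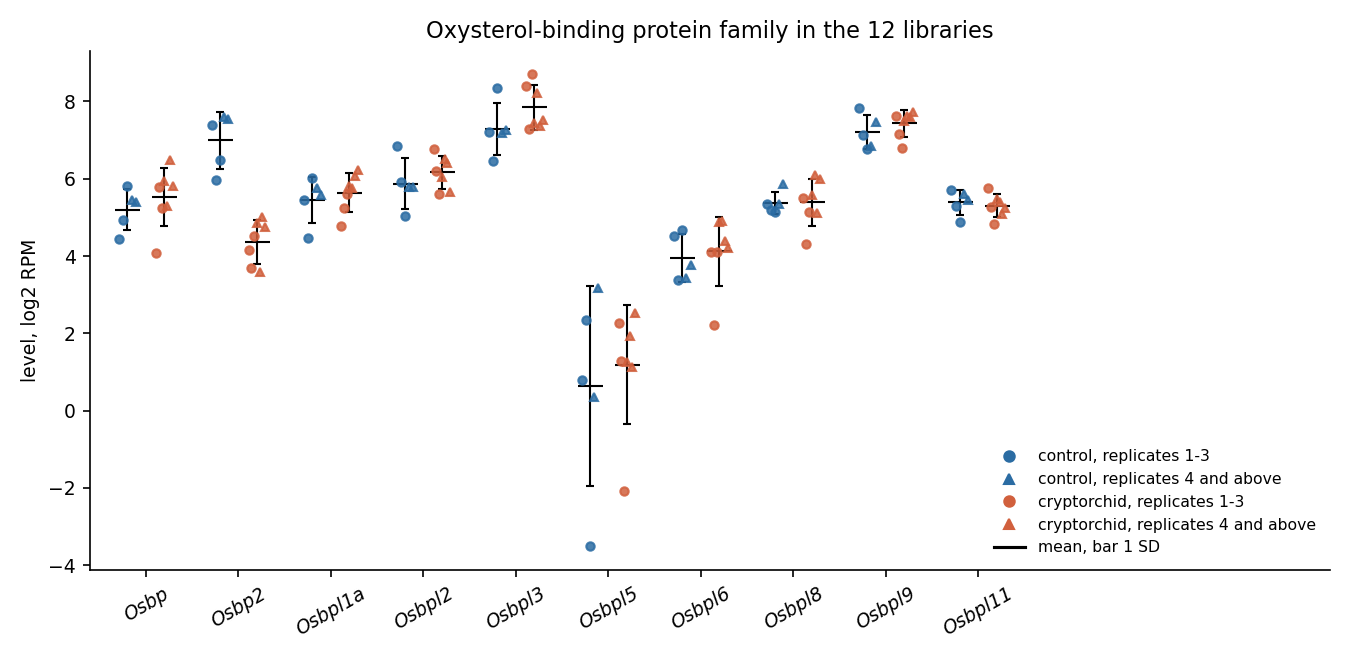
Level of each of the 10 family genes in log2 RPM (vertical axis) in control (blue) and cryptorchid (orange) libraries, with circles for replicates 1 to 3, triangles for replicates 4 and above, and black bars for the mean and 1 SD. The cryptorchid points lie below all control points for *Osbp2* (3.59 to 5.02 against 5.96 to 7.59), and the groups overlap for the other 9 genes.

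Markers of spermatids were also lower. Of 24 spermatid markers, all of them tested, 11 were lower by 2-fold or more at an unadjusted *P* under 0.05 (*Prm1*, *Prm2*, *Spata18*, *Tssk6*, *Odf1*, *Odf2*, *Gapdhs*, *Oaz3*, *Hspa1l*, *Spem1* and *Smcp*) and 0 were higher. Their median log2 difference was -1.58, against 0.10 for all genes tested, and the lowest adjusted *P* from limma was 0.134, so 0 of the 24 held after adjustment over all genes. *Prm2*, a protamine that packs sperm DNA, went from a control mean of 9.32 ± 0.886 log2 RPM (SD, n = 5) to a cryptorchid mean of 5.59 ± 2.34 (SD, n = 7). *Prm1* had a log2 difference of -2.40 (95% interval -4.09 to -0.71), and *Tnp1*, a transition protein that precedes the protamines, one of -2.20 (-4.55 to 0.14). *Prm1* and *Tnp1* had reads in every library, and 4 of the 24 markers (*Tnp2*, *Tssk6*, *Catsper1* and *Spem1*) had none in 1 cryptorchid library, replicate 2.

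The summed level of the 24 markers was 3324, 1236, 2551, 5340 and 6510 RPM in control replicates 1 to 5. In cryptorchid replicates 1 to 7 it was 471, 138, 960, 1836, 445, 4262 and 1862 RPM. Over all libraries these sums overlapped between the groups, but within each technical set they did not. In replicates 1 to 3 they ran from 138 to 960 RPM in cryptorchid and from 1236 to 3324 RPM in control libraries. In replicates 4 and above they ran from 445 to 4262 RPM and from 5340 to 6510 RPM. With so few libraries per set, this separation was not tested. Cryptorchid replicate 6, with 4262 RPM, was above control replicates 1 to 3 and below control replicates 4 and 5. The separation of the groups in *Osbp2* was favoured by its choice on this contrast and is not weighed against these sums. With the log2 sum of the spermatid markers added as a term to the fit, an alternative chosen after the data were seen, the log2 difference of *Osbp2* was -1.88 with a standard error of 0.331, against -2.62 without it. How much of the *Osbp2* difference goes with spermatid RNA was not tested. Of the markers of other stages, 0 of 18 for undifferentiated spermatogonia and 0 of 16 for spermatocytes passed the limits, with median log2 differences of -0.02 and -0.05. Among 8 markers of differentiating spermatogonia, 1 was higher (*Stra8*) and 0 were lower. Of the somatic markers tested, 0 of 13 for Sertoli cells and 0 of 3 for Leydig cells passed the limits. In 5 markers of peritubular myoid cells 1 was higher (*Des*) and 1 lower (*Actg2*), in 7 of macrophages 1 was higher (*Mrc1*), in 3 of T cells 1 was higher (*Lck*), and in 7 of endothelial cells 3 were higher (*Cdh5*, *Tie1* and *Vwf*). *Tie1* had no reads in 4 control and 1 cryptorchid libraries, and *Des* in 3 and 1. Their differences thus rest in part on the value given to a gene without reads, which varies with depth. None of the 10 family genes is in a marker list.

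**Figure D2:**
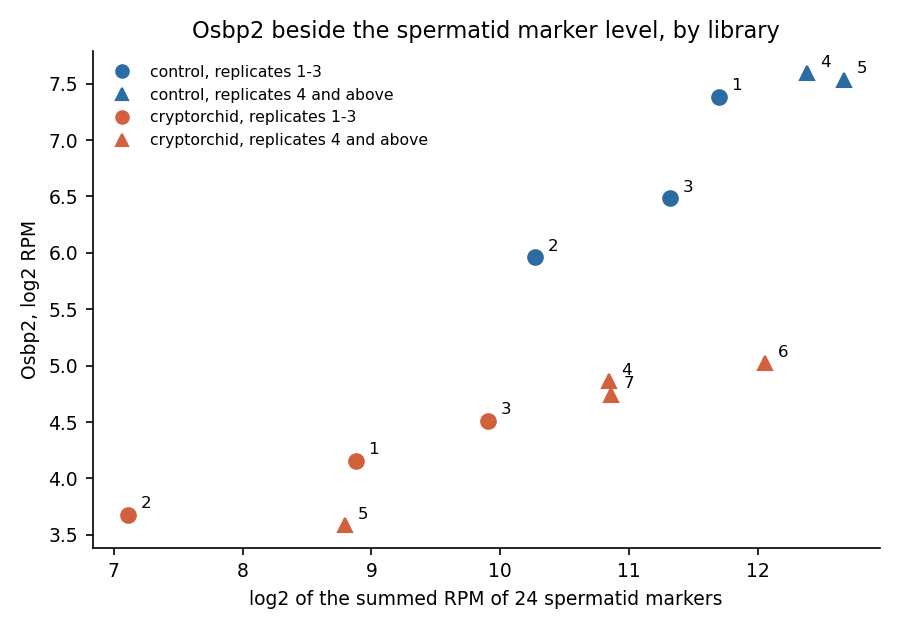
*Osbp2* level (vertical axis, log2 RPM) against the log2 summed RPM of 24 spermatid markers (horizontal axis), 1 point per library labelled with its replicate number, control in blue and cryptorchid in orange. Within the cryptorchid libraries the points with a higher marker sum have a higher *Osbp2* level (r = 0.92), from 3.68 in replicate 2 to 5.02 in replicate 6. All 7 cryptorchid points lie below the 5 control points, as *Osbp2* was chosen for.

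The *Osbp2* values of the 7 cryptorchid libraries also entered the contrast on which *Osbp2* was chosen. Within these libraries the *Osbp2* level was compared with the log2 summed level of each of 10 marker lists. It was higher in libraries with a higher spermatid sum, with Pearson's r = 0.92 (exact two-sided permutation *P* = 0.00198, adjusted over the 10 lists 0.0198) and Spearman's rho = 0.93 (exact *P* = 0.00675, adjusted 0.0615). Without cryptorchid replicates 2 and 6, the farthest from the median sum, r was 0.92. It was lower in libraries with a higher endothelial sum, which ran from 36.9 to 71.4 RPM, with r = -0.89 (exact permutation *P* = 0.00853, adjusted 0.0427) and rho = -0.89 (exact *P* = 0.0123, adjusted 0.0615), and r was -0.99 without cryptorchid replicates 1 and 2. For the other 8 lists the adjusted exact *P* of r was 0.196 or higher. Among them the peritubular myoid sum had r = 0.71 and rho = 0.86 (exact permutation *P* of rho = 0.0238, adjusted 0.0794), with r = 0.86 without the 2 farthest libraries. This sum rests largely on *Actg2*, with a cryptorchid mean of 2.67 log2 RPM, since the next highest mean of that list was 0.49, for *Tagln*. The spermatocyte sum had r = 0.75, and 0.57 without the 2 farthest. For undifferentiated and differentiating spermatogonia r was -0.18 and -0.11, and it changed sign to 0.75 and 0.59 without cryptorchid replicates 3 and 5. Technical set 1 holds 3 and set 2 holds 4 of these libraries, too few for a value within each set, and the 5 control libraries are too few for a correlation. The permutations moved values across both sets, so a difference between the sets can enter these relations and their *P*-values.

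*Osbp*, the founding member and the other gene of subfamily I, had 4.43, 4.92, 5.81, 5.45 and 5.40 log2 RPM in control replicates 1 to 5. In the cryptorchid libraries it ran from 4.09 to 6.48, with a median of 5.79. These ranges overlapped, and the log2 difference was 0.32 with a standard error of 0.370 (95% interval -0.46 to 1.10). Per kilobase of exon, *Osbp2* was above *Osbp* in 5 of 5 control libraries, by 0.69 to 2.97 on the log2 scale. In the cryptorchid libraries it was above *Osbp* in 1 of 7, and the log2 difference between the genes ran from -2.09 to 0.08. The order of the 2 genes of this subfamily was thus the opposite in 6 of the 7 cryptorchid libraries.

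*Osbpl1a* and *Osbpl2* form subfamily II, in which ORP1L acts on late endosomes and ORP2, which lacks the PH domain, supplies sterol to the plasma membrane. *Osbpl1a* had 4.46 to 6.03 log2 RPM in control (median 5.58) and 4.78 to 6.23 in cryptorchid libraries (median 5.76), a log2 difference of 0.19 with a standard error of 0.319. Its exons overlap those of *AC102055.1* on the other strand, and it is not stated whether counting used strand. *Osbpl2* had 5.04 to 6.86 in control (median 5.79) and 5.60 to 6.76 in cryptorchid libraries (median 6.19), with a log2 difference of 0.29 (standard error 0.309). Both overlapped between the groups over most of their range.

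*Osbpl3* and *Osbpl6* belong to subfamily III, whose proteins sit between the ER and the plasma membrane, ORP3 with the small GTPase R-Ras. *Osbpl3* had 7.22, 6.47, 8.34, 7.18 and 7.27 log2 RPM in control replicates 1 to 5, and 7.28 to 8.70 in cryptorchid libraries, with a median of 7.51. In control, 4 of the 5 libraries were below the lowest cryptorchid library, and replicate 3 was above most of them. The log2 difference was 0.55 with a standard error of 0.336 (95% interval -0.15 to 1.26), 0.79 in replicates 1 to 3 and 0.41 in replicates 4 and above. *Osbpl6* had 4.53, 3.37, 4.68, 3.42 and 3.76 log2 RPM in control replicates 1 to 5, and 2.22 to 4.90 in cryptorchid libraries, with a median of 4.22. Its log2 difference was 0.17 with a standard error of 0.459, but -0.71 in replicates 1 to 3 and 1.01 in replicates 4 and above, where it passed the 2-fold limit. The direction of *Osbpl6* therefore differed between the technical sets, a difference that was not tested.

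*Osbpl5* and *Osbpl8* of subfamily IV encode proteins that are anchored in the ER membrane and trade phosphatidylserine for PI4P at the plasma membrane. *Osbpl5* was the lowest of the family, with 42, 147, 0, 7 and 41 reads in control replicates 1 to 5 and 2 to 107 reads in the cryptorchid libraries. On the log2 RPM scale it stood at 0.79, 2.35, -3.50, 0.35 and 3.18 in control, where the value of replicate 3 is the one the table gives to a gene without reads. Cryptorchid values ran from -2.07 to 2.53, with a median of 1.27. Its log2 difference of 0.55 had a standard error of 1.06, and it was -0.48 without control replicate 3, so no direction can be read at this depth. *Osbpl8* had 5.15 to 5.86 log2 RPM in control (median 5.34) and 4.32 to 6.10 in cryptorchid libraries (median 5.51), with a log2 difference of 0.01 (standard error 0.311).

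*Osbpl9* and *Osbpl11*, of subfamilies V and VI, encode proteins of the Golgi and late endosomes that pair with each other. *Osbpl9* had 6.77 to 7.84 log2 RPM in control (median 7.14) and 6.79 to 7.73 in cryptorchid libraries (median 7.59), a log2 difference of 0.21 with a standard error of 0.259. Its exons overlap those of *Nrd1* on the other strand. *Osbpl11* had 4.89 to 5.71 in control (median 5.46) and 4.83 to 5.77 in cryptorchid libraries (median 5.28), and at -0.09 (standard error 0.259) it was the only one of these 9 genes with a difference below 0. The 9 differences ran from -0.09 to 0.55 with a median of 0.21, beside a median of 0.10 over all genes tested. For 5 of the 9 the 95% interval lay within 2-fold in both directions, and for *Osbp*, *Osbpl3*, *Osbpl5* and *Osbpl6* it did not.

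**Figure D3:**
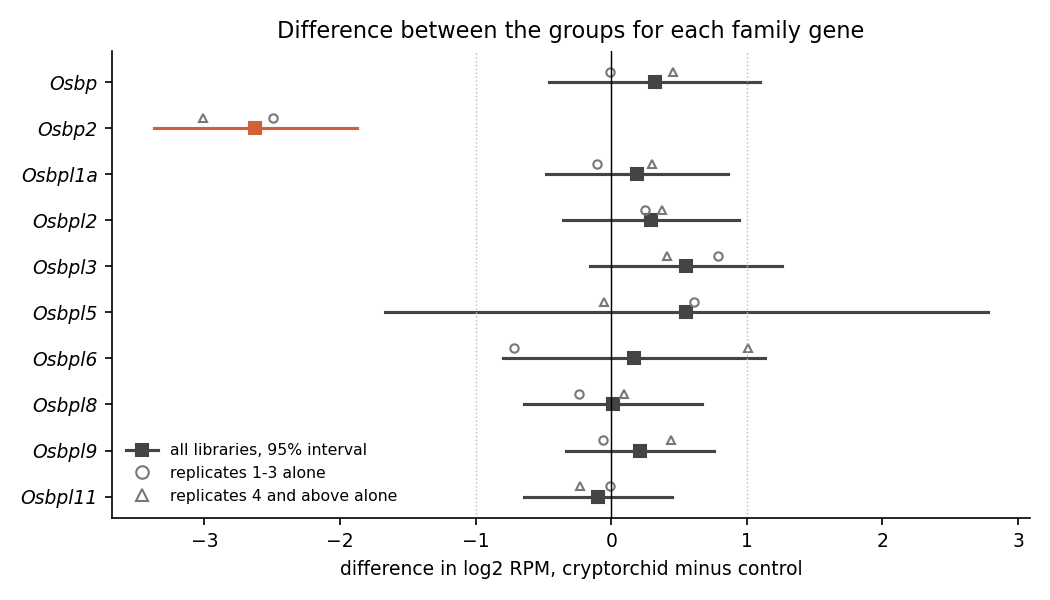
Difference in log2 RPM (cryptorchid minus control, horizontal axis) for each family gene, with squares and lines for all libraries and their 95% interval, open circles for replicates 1 to 3 alone, open triangles for replicates 4 and above alone, and dotted lines at 2-fold. The *Osbp2* interval lies from -3.37 to -1.88, and the intervals of the other 9 genes include 0.

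Levels were compared between genes per kilobase of exon. In control libraries *Osbpl9* was highest with 40.2 ± 12.8 RPM per kilobase (SD, n = 5), followed by *Osbp2* with 31.4 ± 13.4, *Osbpl3* with 23.5 ± 12.2 and *Osbpl2* with 22.8 ± 11.1. Neighbours among these 4 genes differed by less than the spread of their difference over the 5 libraries. A step beyond that spread separated *Osbpl2* from *Osbpl11* (9.47 ± 1.97), and *Osbpl11*, *Osbp* (8.65 ± 2.96), *Osbpl1a* (7.37 ± 2.53) and *Osbpl8* (5.87 ± 1.26) were again within the spread of their neighbours. *Osbpl6* (2.01 ± 0.864) stood below them by more than the spread, and *Osbpl5* (0.835 ± 0.893) was lowest, within the spread of its difference to *Osbpl6*. In cryptorchid libraries *Osbpl9* (45.9 ± 9.55, SD, n = 7), *Osbpl3* (33.8 ± 14.1) and *Osbpl2* (26.6 ± 7.78) led, and *Osbp2* (4.95 ± 1.81) came after *Osbpl8* (6.26 ± 2.37), from which it differed by less than the spread. Steps beyond the spread lay below *Osbpl2*, below *Osbp2* and below *Osbpl6*.

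*Osbp2* thus went from rank 2 to rank 8 of the 10 genes, ranked by the mean of log2 values. It made up 12.6 to 29.0% of the summed level of the 10 genes per kilobase in control libraries (median 19.7%) and 1.61 to 4.67% in cryptorchid libraries (median 3.74%). The other 9 genes summed to 96.8 to 153 RPM per kilobase in control (median 122) and 115 to 167 in cryptorchid libraries (median 144). These ranges overlapped.

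**Figure D4:**
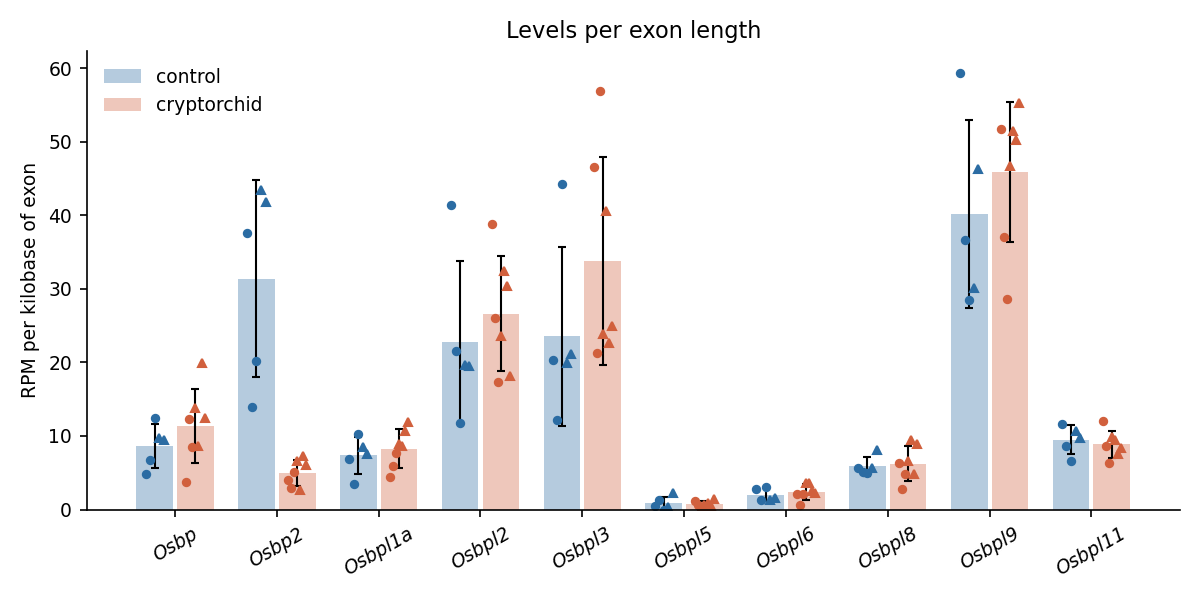
Level in RPM per kilobase of exon (vertical axis, starting at 0) of each family gene, with bars for the group mean, error bars for 1 SD and points for libraries (circles for replicates 1 to 3, triangles for replicates 4 and above). *Osbp2* is among the 4 highest genes in control (31.4 ± 13.4) and among the 3 lowest in cryptorchid libraries (4.95 ± 1.81).

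Over all 12 libraries, the 5 genes with a pattern most like that of *Osbp2* were *Dnajb8* (Pearson's r = 0.96), *Lrrc57* (0.95), *Gm49661* (0.95), *Psmf1* (0.95) and *Aqp11* (0.94). These values are descriptions over 12 libraries that share the group difference used to choose *Osbp2*. With group means subtracted, r was 0.80 for *Dnajb8*, 0.87 for *Lrrc57*, 0.79 for *Gm49661*, 0.85 for *Psmf1* and 0.94 for *Aqp11*. For *Dnajb8*, a DNAJ co-chaperone, the control mean was 5.60 ± 0.721 log2 RPM (SD, n = 5) and the cryptorchid mean 2.77 ± 0.860 (SD, n = 7), without overlap. For the other family genes r with *Osbp2* ran from -0.43 for *Osbpl3* to 0.22 for *Osbpl11* over the 12 libraries. The group difference on which *Osbp2* was chosen enters these values, so nothing is read from their being low. With group means subtracted the highest was 0.56, for *Osbpl1a*.

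Other genes of lipid exchange were taken from a list of 41 genes by role: ER anchors and adaptors, PI4P kinases and the PI4P phosphatase, small GTPases and direct binding partners, other lipid transfer proteins, and the 2 family genes *Osbpl7* and *Osbpl10*. By the same limits 1 was higher and 1 was lower, 2.44% each, against 3.56% and 2.36% of all genes. None held at an adjusted *P* of 0.05 in limma (0 genes, lowest adjusted *P* = 0.456), a level that 0.0118% of all genes reached. An unadjusted *P* under 0.05 from limma was found for 5 of them. The share of all genes at that limit alone was not counted, so nothing is read from these 5. Their median log2 difference was 0.12. The VAP proteins *Vapa* (0.37, standard error 0.332) and *Vapb* (0.08, 0.332), which hold OSBP at the ER, differed by about their standard error or less. *Sacm1l*, the ER phosphatase that removes PI4P, had a log2 difference of 0.84 (standard error 0.535, adjusted *P* = 0.649 from limma). The log2 differences of the 4 PI4P kinases ran from 0.18 for *Pi4k2b* to 0.49 for *Pi4k2a*.

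*Vim*, which encodes the ORP4 partner vimentin, was the gene above the limits. It had 0.25, 1.13, 0.74, 3.84 and 2.73 log2 RPM in control replicates 1 to 5, and 2.28, 2.59, 1.63, 4.28, 4.87, 4.73 and 4.43 in cryptorchid replicates 1 to 7. The groups overlapped, and within both groups replicates 4 and above were the higher ones. The log2 difference was 1.81 with a standard error of 0.740 (95% interval 0.25 to 3.36), and its adjusted *P* from limma over all genes was 0.456. It no longer passed the limits without control replicate 1, 2 or 3 or cryptorchid replicate 5 or 6 (1.43 to 1.65), or in replicates 1 to 3 alone (1.46), and it was 1.29 in replicates 4 and above alone. Vimentin is also made by somatic cells. By the same limits 0 of 13 Sertoli and 0 of 3 Leydig cell markers differed. Of 5 peritubular myoid markers 1 was higher and 1 lower, and 1 of 7 for macrophages and 1 of 3 for T cells were higher. For endothelial cells 3 of 7 (*Cdh5*, *Tie1* and *Vwf*) were higher, against 3.56% of all genes, though *Tie1* had no reads in 4 control and 1 cryptorchid libraries. The endothelial sums were 25.7 to 49.2 RPM in control (median 40.3) and 36.9 to 71.4 RPM in cryptorchid libraries (median 40.3). The part of such cells in the *Vim* difference was not tested.

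*Mospd3*, which encodes an ER protein of the VAP relatives, was the gene below the limits. It had 4.90, 4.73, 3.47, 3.67 and 3.78 log2 RPM in control replicates 1 to 5, and 1.78 to 4.38 in cryptorchid libraries. The log2 difference was -1.03 with a standard error of 0.491 (95% interval -2.07 to 0.00, adjusted *P* = 0.526 from limma). It no longer passed the limits without control replicate 1, 2 or 5 or cryptorchid replicate 1, 4, 5, 6 or 7 (-1.12 to -0.82), with median centring (-1.10), quantile normalization (-1.09), log2(RPM + 1) (-0.94), a common floor (-1.03), the technical set as a term (-0.84) or a replicate block (-0.73). The difference was -0.46 in replicates 1 to 3 alone and -1.28 in replicates 4 and above alone, neither past the limits. *Col4a3bp* (0.63), *Plekha8* (0.57) and *C2cd2l* (0.98), which encode the ceramide transfer protein CERT, the glycolipid transfer protein FAPP2 and an ER protein that carries phosphatidylinositol, had an unadjusted *P* under 0.05 at log2 differences under 1.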

How the data were processed

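RNA-seq libraries were made from 5 control and 7 cryptorchid samples of sorted mouse spermatogonia. The deposited values are log2 RPM per gene: the authors trimmed the reads (Trim Galore 0.6.6, with FastQC 0.11.8), mapped them to mm10 with HISAT2 2.1.0, and counted them over genes in SeqMonk. A gene without reads carries the log2 value of 0.9 reads. Recovered reads per gene, checked for values under 1000 reads, were whole within 0.1 read and give the depths, which cover counting error only. Whether counting used strand is not given in the sources used here.

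Groups were compared with limma 3.58.1 (lmFit and eBayes with trend, R 4.3.3) on the deposited log2 values, over 16932 genes with a log2 mean RPM above -1. Limits were 2-fold and an unadjusted *P* under 0.05, as in the study. Its count test was not run on the recovered reads, and limma on the log2 values took its place. Adjusted *P* is Benjamini-Hochberg over all genes tested. The script was tested on simulated data. The other analyses used Python 3.11.15. Exon lengths and positions are from GENCODE on GRCm38 (mm10). Named were all family genes, the lipid exchange genes past the limits, the 5 genes most like *Osbp2* by Pearson's r, and defining markers. The other named lipid exchange genes were added after their values were seen. The family genes, marker lists and lipid exchange list were chosen with earlier results of these data known. No label ties libraries to separate mice, so *P*-values measure the spread between these samples, and the 31 pairs of replicates differed by 13.5 to 264 times sampling noise.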

Additional observations from a re-analysis of the deposited data

Results flagged for a closer look

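Within the groups of 5 or 7 libraries, 20 sets of values of the 10 family genes were searched for a single library far from the others, and 3 were found, where chance gives about 1 in 20. *Osbpl5* in cryptorchid replicate 3 stood at -2.07 log2 RPM, with the nearest library at 1.14, and rests on 2 reads. *Osbpl6* in cryptorchid replicate 2 stood at 2.22, with the nearest library at 4.10. *Osbpl8* in control replicate 5 stood at 5.86, with the nearest library at 5.34. *Osbp2* had no such library in either group.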

How the results depend on the processing

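The *Osbp2* difference, which was selected on this contrast and so gains no support from refits of it, ran over 26 alternatives from -3.01 (replicates 4 and above alone) to -1.88 (spermatid level as a term, chosen after the data were seen, the only alternative that moved it by more than 1 SD). No other family gene passed the limits in any alternative except *Osbpl6* in replicates 4 and above alone (1 higher). *Osbpl8* changed sign in 12 alternatives, *Osbpl1a* in 3, *Osbpl5* and *Osbpl6* in 2 each, and *Osbp* and *Osbpl9* in 1 each. Lipid exchange genes past the limits in the lower direction numbered 0 with median centring, quantile normalization, log2(RPM + 1), a common floor, the technical set as a term and either set alone, 2 with voom on recovered reads, and 0 to 1 when a replicate was left out. In the higher direction they numbered 2 with voom, the replicate block and replicates 4 and above alone, 3 with the set as a term, and 0 to 2 when a replicate was left out. Over all genes, 603 were higher and 399 lower. With quantile normalization 457 were higher and 542 lower. The higher count was 385 with a log2 mean RPM above 2 and 287 in replicates 1 to 3 alone, and 867 higher were found without the filter. The lower count was 703 with array weights, 635 with the set as a term and 705 in replicates 4 and above alone. The cause of these changes was not tested. The spermatid markers lower by the limits numbered 11, and 9 to 15 when a replicate was left out.

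Same-numbered replicates of the groups deviated together with r = 0.35, 0.36, 0.41, 0.25 and 0.05 for replicates 1 to 5. Replicates 1 to 4 each correlated best with their own number in both directions, and replicate 5 did not. No label gives the pairs, so the numbers were not taken as pairs in the main fit, though replicates 1 to 4 may be pairs. With a replicate block *Osbp2* had -2.83, *Mospd3* had -0.73 and no longer passed the limits, the lower count over all genes was 900 and that of spermatid markers was 22. *Osbpl5*, at 0 to 147 reads, is the family gene that depth limits.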

Other observations

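The family genes outside the 10, *Osbpl7* and *Osbpl10*, were also read. For *Osbpl10* the control mean was 6.71 ± 0.439 log2 RPM (SD, n = 5) and the cryptorchid mean 6.34 ± 0.254 (SD, n = 7), a log2 difference of -0.36 with a standard error of 0.247 (adjusted *P* = 0.677 from limma over all genes). *Osbpl7* had 2.16 ± 0.748 and 2.55 ± 1.16, a log2 difference of 0.39 with a standard error of 0.633 (adjusted *P* = 0.883 from limma).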
